A study of Ovis aries with 8 samples.

Results

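The genes described here encode the nuclear subunits of the mitochondrial respiratory chain and ATP synthase, together with a few proteins that assemble or restrain them. They were chosen by gene symbol, as every probe set annotated with a single symbol that starts with NDUF, UQCR or ATP5, that is SDHA, SDHB, SDHC, SDHD, CYC1 or CYCS, or that starts with COX followed by a digit from 4 to 8. This gave 85 genes read by 110 probe sets, out of 9155 genes with a single symbol and 24016 probe sets tested. Complex I held 36 of the genes, complex II 4, complex III 9, complex IV 15 and complex V 16, and the other 5 were the complex I assembly factors NDUFAF3, NDUFAF5, NDUFAF6 and NDUFAF8 and the ATP synthase inhibitor ATP5IF1. No probe set carried CYCS, COX6B1 or COX7B as its single symbol, and none of the 26 symbols searched for subunits encoded in mitochondrial DNA matched a probe set, so those genes are not described.

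The Callipyge mutation is a single base change that causes muscle overgrowth in lambs that inherit it from the sire together with a normal maternal allele. The study examined muscle fibres and plasma metabolites, and used arrays to ask whether the mutation has effects in fat. Perirenal adipose tissue, which surrounds the kidney, was collected from 8 lambs at 12 weeks of age, and total RNA from each lamb was hybridised to its own Affymetrix Bovine Genome array. The 4 NmatCpat lambs carried the Callipyge allele on the paternal chromosome and a normal maternal allele, and the 4 NmatNpat lambs carried the normal allele from both parents. All were male Dorset/Suffolk/Rambouillet cross-bred lambs of a research flock, and the mutation is present in every cell of a carrier, so that an effect arising in the fat cannot be separated from one reaching it from muscle. The probes were designed on cattle sequence, and a probe set that matches the sheep transcript poorly reads low.

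The respiratory chain sits in the inner mitochondrial membrane. Complex I takes electrons from NADH and complex II takes them from succinate, ubiquinone carries them to complex III, cytochrome c carries them to complex IV, and complex IV passes them to oxygen. Complexes I, III and IV move protons across the membrane, and complex V, the ATP synthase, uses their return to make ATP. White fat holds fewer mitochondria than brown fat, whose uncoupling protein lets protons return without making ATP. Lambs are born with brown fat around the kidney, which turns into white fat after birth.

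Values are log2 intensities after quantile normalization over the 8 arrays, and a difference is the NmatCpat mean minus the NmatNpat mean, so that 1 log2 unit is a doubling. Each gene is given by its brightest probe set unless stated. A probe set was called when its unadjusted P from limma was at most 0.05 and its fold difference above 1.5. The median deposited intensity of an array lay between 65.3 and 72.55 and the GAPDH control signal at the 3′ end divided by that at the 5′ end, a sign of RNA integrity, between 0.941 and 1.15. Adipocyte transcripts were strong in all lambs, with a summed intensity of 37265 to 42495 over 11 markers in NmatCpat lambs and 38457 to 40632 in NmatNpat lambs. Separately from the genotype, 10 neuron markers summed to 25975 in NmatNpat animal 1 against 2246 to 2996 in the other 7 lambs. The muscle light chain MYL2 stood at 7.03 in NmatCpat animal 4 against 0.96 to 3.63 elsewhere. Of 12 skeletal muscle markers, that lamb was the highest of the 8 in 9 and the lowest in 1, CKM, at 9.22. The summed intensity of the 12 was 6209 in that lamb and 6882 in NmatNpat animal 4, the highest lamb.

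Across the respiratory chain, 1 gene was called between the genotypes: NDUFA7, a small accessory subunit of complex I, was higher in every NmatCpat lamb than in any NmatNpat lamb. The other 84 genes were not called by their brightest probe sets. Of the 110 probe sets, 2 were called, both higher in NmatCpat lambs, and both belonged to complex I accessory subunits (NDUFA7 and the dimmer probe set of NDUFA11). Over all 24016 probe sets 3.93% were called, 2.04% higher and 1.88% lower in NmatCpat lambs. A P of at most 0.05 with no fold threshold was reached by 5 member probe sets (those 2 and the probe sets of NDUFA10, COX7A2 and NDUFAF8), against 4.66% of all probe sets. The genotypes did not overlap in 5 member probe sets (those 2, COX7A1, COX7A2 and NDUFAF6), against 2.74% of all. No member passed after Benjamini-Hochberg adjustment over all probe sets, the smallest adjusted P from limma being 0.983.

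Differences among the 85 genes were small and mostly above 0. The median difference was 0.17, against 0.0046 for all 9155 genes and 0.0069 for the 2289 genes with the highest mean level, and 67 of the 85 (78.8%) lay above 0, against 50.7% of all genes and 51.7% of the 2289 brightest genes. Subunits of the chain share mitochondria and lambs, so they are not independent readings, and these shares are descriptions. In a bulk sample, more cells rich in mitochondria and more RNA per cell cannot be told apart. The 95% confidence interval excluded a 2-fold difference in either direction for 77 of the 85 genes, and a 1.5-fold difference for 37. The median within-genotype SD of a member was 0.23, close to the 0.21 of the 2289 brightest genes and below the 0.35 of all genes.

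**Figure D1:**
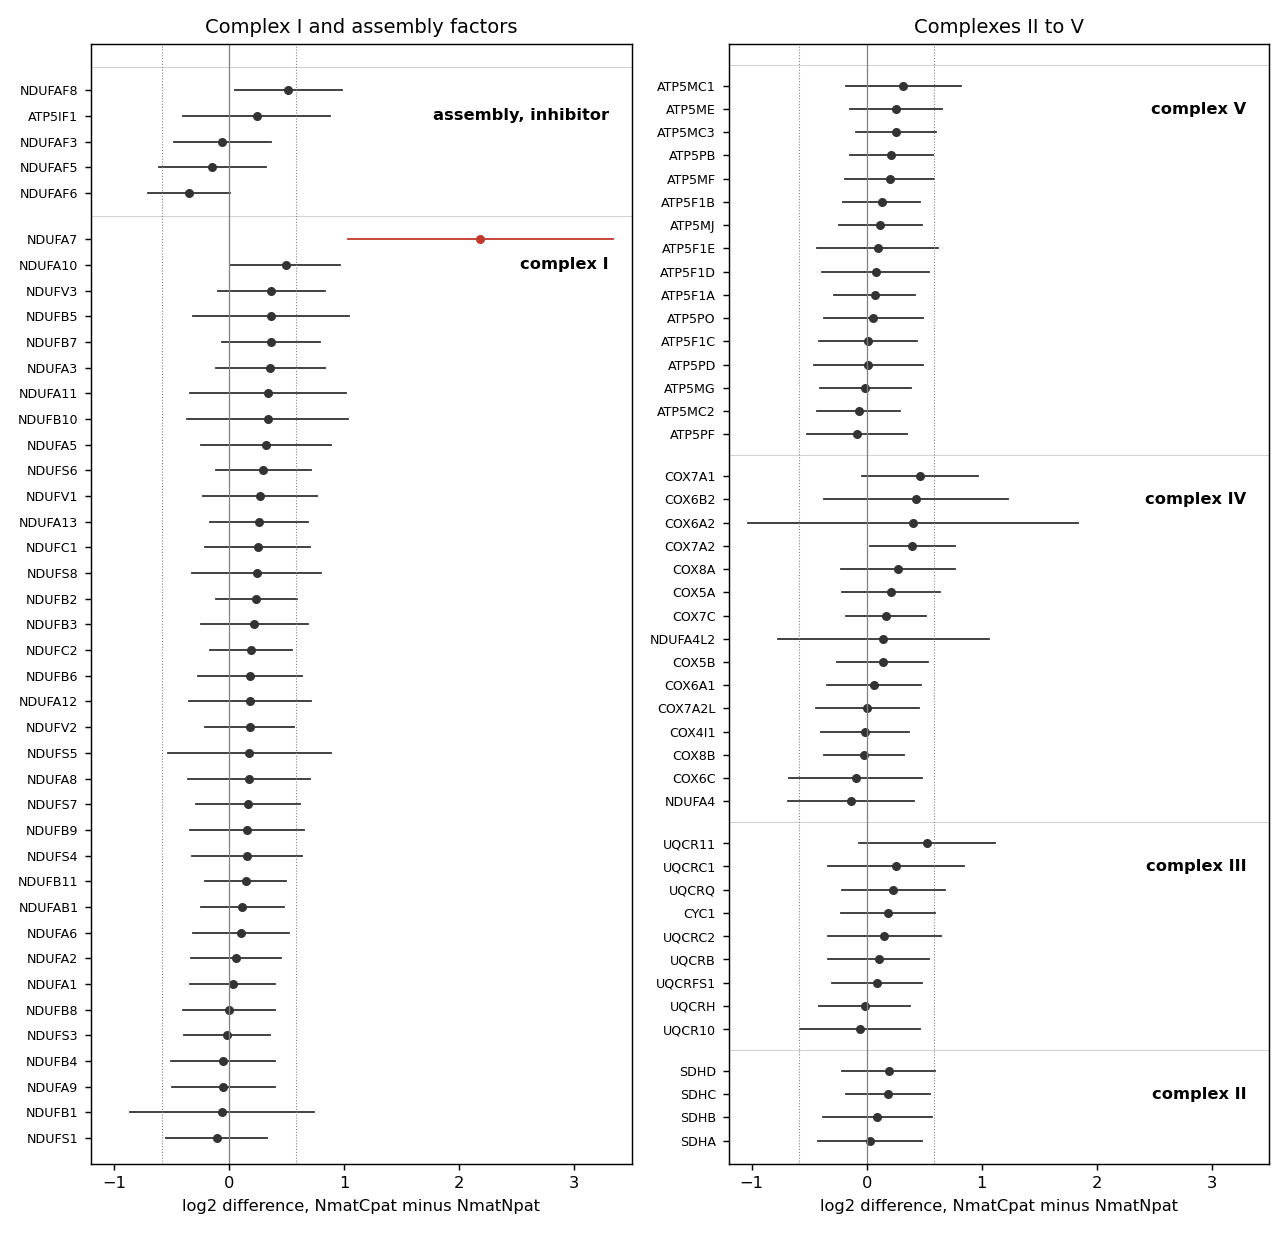
Log2 difference (x axis, NmatCpat minus NmatNpat) of each of the 85 genes with its 95% confidence interval from limma, by complex; dotted lines mark a 1.5-fold difference and red marks the called gene. Most points lie to the right of 0 with intervals that cross it, and NDUFA7 at 2.18 lies far from the rest.

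Complex I, the NADH dehydrogenase, held the called gene. The 36 genes had a median difference of 0.18, with 30 above 0 and 6 below. Accessory subunits, which surround the catalytic core, were split by symbol. Those without NDUFB symbols were above 0 in 18 of 19 genes, the exception being NDUFA9 at -0.052. Those with NDUFB symbols, which lie in the membrane arm, were above 0 in 8 of 11. Core subunits, which hold the flavin and the iron-sulfur clusters, were above 0 in 4 of 6. Outside NDUFA7 the differences ran from -0.11 for the core subunit NDUFS1 to 0.49 for the accessory subunit NDUFA10.

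NDUFA7 read 7.63, 7.32, 7.29 and 6.68 in NmatCpat animals 1 to 4 and 4.40, 4.07, 5.35 and 6.35 in NmatNpat animals 1 to 4. The genotypes did not overlap, although NmatNpat animal 4 came close to NmatCpat animal 4, and the spread was wider among NmatNpat lambs (SD 1.03, n = 4) than among NmatCpat lambs (SD 0.40, n = 4). The difference was 2.18 (95% confidence interval 1.03 to 3.34), a 4.54-fold higher level, with an unadjusted P of 0.0024 and an adjusted P of 0.983 from limma. The exact two-sided permutation test gave P = 0.0286, the smallest that 4 against 4 lambs allow. Any probe set without overlap takes that value. In deposited intensity units the values were 200.4, 157.3, 157.3 and 100.2 against 22.6, 17.0, 40.8 and 79.0. A second probe set for the gene read between 4.0 and 12.2 intensity units in all lambs, near the lower end of the scale, and differed by 0.29 with overlapping genotypes. The gene was called under all 19 alternatives tried. With single lambs left out the brighter probe set differed by 1.86 to 2.62, with an offset before the log by 1.71, and with both probe sets averaged the difference was 1.24.

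NDUFA11, an accessory subunit of the membrane arm, gave unlike answers from its probe sets. The dimmer one read 5.52, 6.88, 5.70 and 5.62 in NmatCpat lambs and 3.97, 5.33, 5.24 and 5.11 in NmatNpat lambs, a difference of 1.02 (95% confidence interval 0.06 to 1.98, unadjusted P = 0.040 and adjusted P = 0.983 from limma). Those genotypes did not overlap, although NmatCpat animal 2 and NmatNpat animal 1 each lay well away from the rest of their group. The brighter one read 8.20, 7.18, 7.56 and 7.04 against 7.59, 7.15, 6.91 and 6.97, a difference of 0.34, and its genotypes overlapped. The call of the dimmer probe set was lost in 6 alternatives: without moderated variances, without NmatCpat animal 2 or animal 3, without NmatNpat animal 1 or animal 4, and with both NmatCpat animal 4 and NmatNpat animal 1 removed, where its difference was between 0.70 and 1.09.

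NDUFA10, named here after its values were seen because it was among the few members with a P of at most 0.05, read 8.56, 8.21, 7.86 and 8.42 against 7.77, 7.90, 7.91 and 7.50. NmatCpat animal 3 fell inside the NmatNpat range, and the difference of 0.49 had an unadjusted P of 0.044 and an adjusted P of 0.983 from limma and stayed below the fold threshold. The lowest complex I gene, NDUFS1, the large iron-sulfur subunit of the core, read 9.82, 9.47, 9.28 and 9.69 against 9.92, 9.69, 9.62 and 9.46. Its genotypes overlapped throughout, with a difference of -0.11 (95% confidence interval -0.55 to 0.33).

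**Figure D2:**
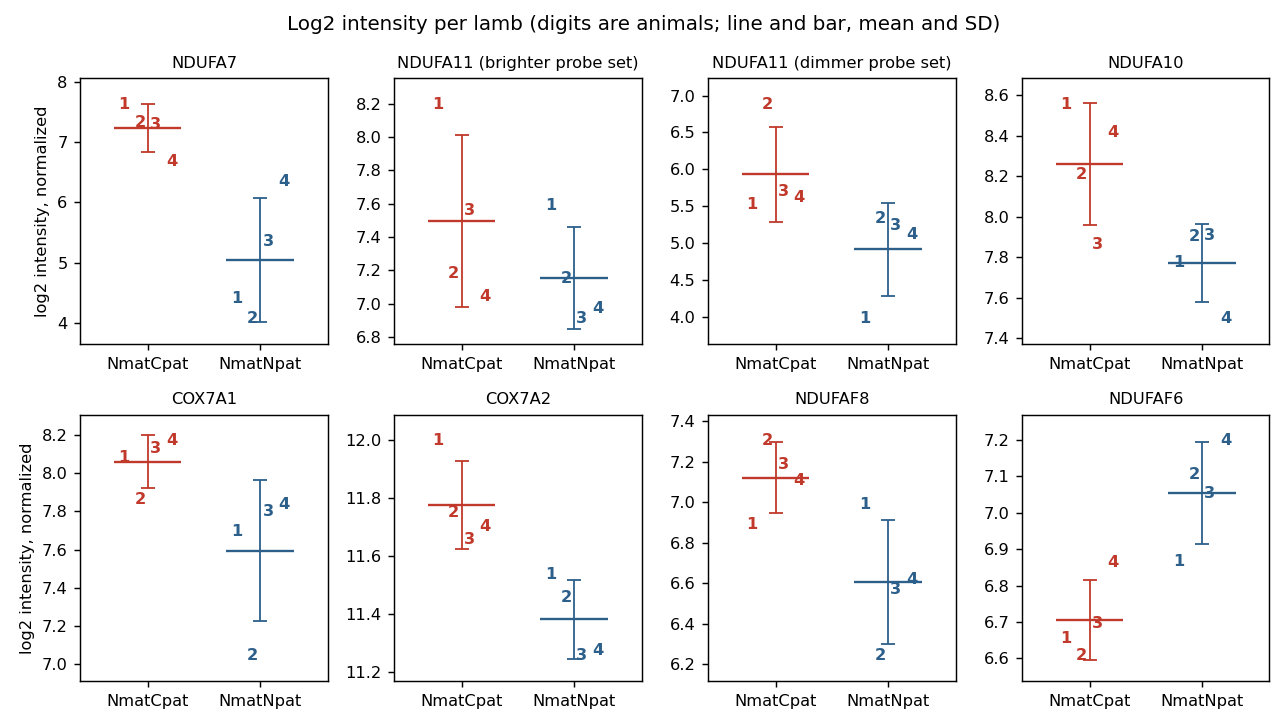
Log2 normalized intensity (y axis) of 8 probe sets in each lamb (digit, animal number; red, NmatCpat; blue, NmatNpat), with the mean as a line and 1 SD as a bar. The genotypes are apart for NDUFA7, the dimmer NDUFA11 probe set, COX7A1, COX7A2 and NDUFAF6, and overlap for the brighter NDUFA11 probe set, NDUFA10 and NDUFAF8.

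Complex II, the succinate dehydrogenase that also serves in the citrate cycle, showed differences between 0.027 and 0.19 in its 4 genes, all above 0. SDHA, the flavoprotein, read 10.22, 9.84, 9.47 and 9.68 against 9.73, 9.83, 9.86 and 9.68, a difference of 0.027. SDHB, the iron-sulfur subunit, differed by 0.093, and the membrane anchors SDHC and SDHD by 0.18 and 0.19. None was called and all overlapped. Their confidence intervals excluded a 2-fold difference in all 4. SDHA differed by -0.11 without NmatCpat animal 1, and SDHB by -0.028 without NmatNpat animal 3.

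Complex III, the cytochrome bc1 complex, had a median difference of 0.15 over 9 genes, 7 of them above 0. The largest was UQCR11, a small subunit, which read 10.51, 9.68, 9.86 and 10.09 against 9.97, 9.55, 9.15 and 9.38. NmatNpat animal 1 lay inside the NmatCpat range, and the difference of 0.53 had an unadjusted P of 0.074 and an adjusted P of 0.983 from limma. It was past both thresholds without NmatCpat animal 2 (0.64) and without NmatNpat animal 1 (0.68). CYC1, the heme-bearing cytochrome c1, differed by 0.19, and the Rieske iron-sulfur protein UQCRFS1 by 0.090. The lowest were UQCR10 at -0.057 and the hinge protein UQCRH at -0.015. With NmatCpat animal 4 and NmatNpat animal 1 removed they were 0.070 and 0.049. UQCR10 stood at 9.67 in NmatCpat animal 1 against 8.96 to 9.06 in the other 3 NmatCpat lambs, and its difference was -0.22 without that animal.

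Complex IV, cytochrome c oxidase, had a median difference of 0.15 over 15 genes, 11 of them above 0. NDUFA4 and NDUFA4L2 were counted here, since NDUFA4 is now known as a subunit of complex IV. Several subunits come in tissue forms: COX6A1, COX7A2 and COX8A in most tissues, and COX6A2, COX7A1 and COX8B in heart, muscle and, for the latter pair, brown fat. The ubiquitous forms were above 0 in 6 of 9 genes and the tissue-restricted forms in 4 of 5.

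COX7A read higher in NmatCpat lambs in both of its main forms, below the fold threshold. COX7A2, the ubiquitous form, read 12.00, 11.75, 11.66 and 11.70 against 11.53, 11.46, 11.26 and 11.27, with no overlap, a difference of 0.40 (95% confidence interval 0.03 to 0.77, unadjusted P = 0.039 and adjusted P = 0.983 from limma). COX7A1, the heart and muscle form, read 8.08, 7.86, 8.13 and 8.17 against 7.69, 7.05, 7.80 and 7.84, also with no overlap, and NmatNpat animal 2 was the lowest lamb. Its difference was 0.46 (95% confidence interval -0.04 to 0.97, unadjusted P = 0.065 and adjusted P = 0.983 from limma). The exact two-sided permutation P was 0.0286 for each of them, the smallest possible here and the value that no overlap fixes. Over all 24016 probe sets 2.74% did not overlap. The 2 genes kept their direction in all 19 alternatives, between 0.28 and 0.54 for COX7A1 and between 0.32 and 0.47 for COX7A2. The related COX7A2L, which helps join complexes III and IV into supercomplexes, differed by 0.0040.

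The other tissue forms varied more between lambs than between genotypes. COX6A2 read 4.47, 5.70, 3.76 and 6.05 against 4.12, 3.58, 5.27 and 5.41, with the largest spread of any complex IV gene (SD 0.93 over the 8 lambs). Its difference of 0.40 became -0.11 when NmatCpat animal 4 and NmatNpat animal 1 were left out together. COX6B2, known from testis, differed by 0.43 and NDUFA4L2, a form raised in low oxygen, by 0.15, while COX8B differed by -0.027. NDUFA4L2 was lowest in NmatNpat animal 1, and its difference was -0.19 without that lamb and -0.26 with NmatCpat animal 4 also removed. NmatCpat animal 4 was the highest of the 8 lambs for COX6A2, COX7A1 and COX8B. The mean deviation of 12 skeletal muscle markers from their 8-lamb means was 1.38 in that lamb and between -0.65 and 0.11 in the others. Their summed intensity was 3861 to 6209 in NmatCpat lambs and 4770 to 6882 in NmatNpat lambs, and the part of muscle transcripts in those genes was not tested. Of the ubiquitous forms, COX8A differed by 0.27, COX6A1 by 0.063, COX4I1 by -0.017, COX6C by -0.097 and NDUFA4 by -0.14, and none was called. With NmatCpat animal 4 and NmatNpat animal 1 removed, COX4I1 was 0.064 and COX6C 0.016.

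Complex V, the ATP synthase, had the lowest median of the complexes, 0.088 over 16 genes, with 13 above 0 and none called or without overlap. The 5 measured subunits of the catalytic F1 head were all above 0, between 0.014 for ATP5F1C and 0.13 for ATP5F1B. The c subunit, which forms the rotating ring, is made from several genes, and they lay on either side of 0: ATP5MC1 at 0.32, ATP5MC3 at 0.26 and ATP5MC2 at -0.069. ATP5MC3 read 12.97, 12.67, 12.83 and 12.99 against 12.59, 12.70, 12.60 and 12.53, with an exact permutation P of 0.0571. NmatCpat animal 2 fell below NmatNpat animal 2, and the other 3 NmatCpat lambs were above all NmatNpat lambs. The lowest gene was ATP5PF, the coupling factor of the stalk, at -0.085. Confidence intervals excluded a 2-fold difference for all 16 genes and a 1.5-fold difference for 11.

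Of the 4 assembly factors and the inhibitor, NDUFAF8 and the inhibitor lay above 0 and the other 3 below it, with a median of -0.060. NDUFAF8 read 6.89, 7.30, 7.18 and 7.11 against 6.99, 6.24, 6.57 and 6.62, and only NmatCpat animal 1 fell inside the NmatNpat range. Its difference of 0.52 (95% confidence interval 0.05 to 0.98) had an unadjusted P of 0.035 and an adjusted P of 0.983 from limma. It was below the fold threshold with all 8 lambs and above it without NmatCpat animal 1 (0.60), without NmatNpat animal 1 (0.65), and with both NmatCpat animal 4 and NmatNpat animal 1 removed (0.65).

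NDUFAF6 went the other way, reading 6.65, 6.61, 6.70 and 6.86 against 6.87, 7.11, 7.05 and 7.20. The genotypes lay close without overlapping, and the difference was -0.35 (95% confidence interval -0.71 to 0.01, unadjusted P = 0.053 and adjusted P = 0.983 from limma). NDUFAF3 differed by -0.060, or 0.078 with NmatCpat animal 4 and NmatNpat animal 1 removed, and NDUFAF5 by -0.14. ATP5IF1, which blocks ATP breakdown by complex V, read 11.94, 11.49, 10.72 and 11.10 against 10.93, 11.31, 10.90 and 11.15, a difference of 0.24 that was 0.031 without NmatCpat animal 1.

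A single high NmatCpat lamb and a single low NmatNpat lamb carried much of the shift. NmatCpat animal 1 was the highest of the 8 lambs in 52 of the 85 genes (61.2%), counting NDUFA4, where NmatNpat animal 1 tied with it. The shares were 13.7% of all genes and 14.1% of the 2289 brightest genes. It was the lowest in none of the 85. NmatNpat animal 3 was the lowest in 37 genes (43.5%), against 12.3% and 14.9%, and the highest in none. With arrays centred on their medians in place of quantile normalization, NmatCpat animal 1 was highest in 32 of the 85 (37.6%, against 917 of all 9155 genes) and NmatNpat animal 3 lowest in 42. The summed normalized intensity of the 85 genes was 212263, 188454, 160487 and 172323 in NmatCpat lambs and 185032, 179754, 151129 and 162796 in NmatNpat lambs. The ranges of the genotypes overlapped, and NmatCpat animal 1 stood 1.40-fold above NmatNpat animal 3.

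**Figure D3:**
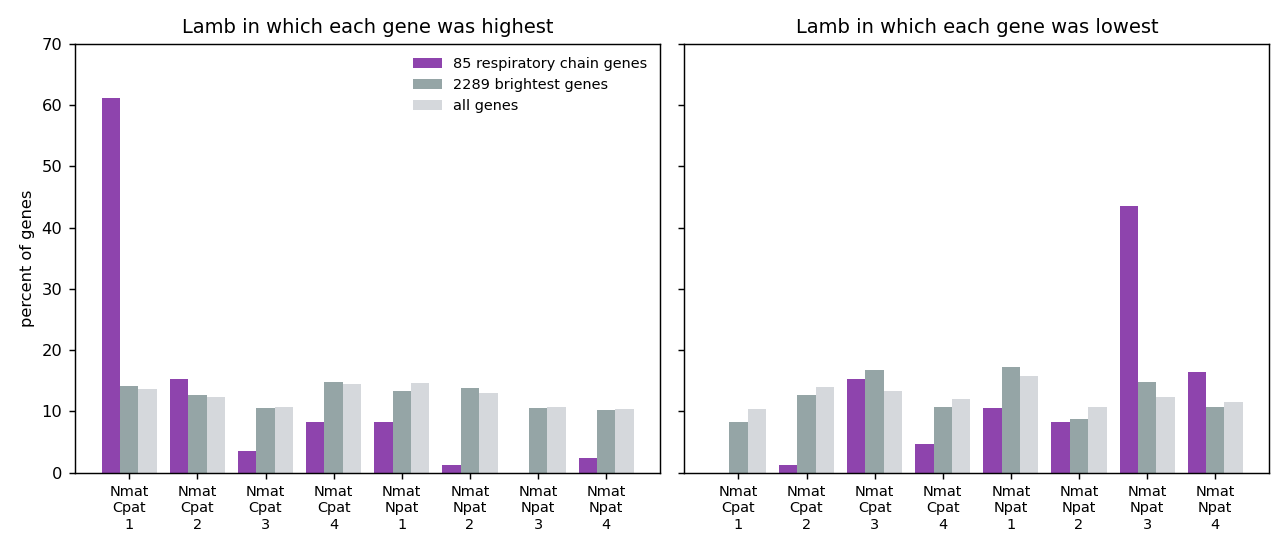
Percent of genes (y axis) whose highest (left) or lowest (right) value fell in each of the 8 lambs, for the 85 respiratory chain genes, the 2289 brightest genes and all genes. NmatCpat animal 1 was highest in 61.2% of the respiratory chain genes and NmatNpat animal 3 lowest in 43.5%, while each lamb took between 8.3% and 17.2% of the 2289 brightest genes on either side.

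The same lambs led in most complexes. NmatCpat animal 1 was highest in 26 of 36 genes of complex I, 3 of 4 of complex II, 5 of 9 of complex III, 8 of 15 of complex IV and 9 of 16 of complex V. In complex IV these were 8 of the 9 ubiquitous forms and none of the 5 tissue-restricted forms. The 8 include NDUFA4, in which NmatNpat animal 1 read the same 11.92. The mean deviation of a complex's genes from their 8-lamb means shows how far each lamb stood, in log2 units. For complex I it was 0.39, 0.16, -0.061 and -0.015 in NmatCpat animals 1 to 4 and -0.049, -0.052, -0.25 and -0.12 in NmatNpat animals 1 to 4.

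In complex II only NmatCpat animal 1 (0.23) stood clear of the other lambs, which lay between -0.11 and 0.069. Complex III put NmatCpat animal 1 at 0.36 and NmatNpat animal 1 next at 0.13, with NmatNpat animals 3 and 4 lowest at -0.26 and -0.20. Complex V had the same lambs first, second and last, at 0.22 in NmatCpat animal 1, 0.099 in NmatNpat animal 1 and -0.22 in NmatNpat animal 3. Complex IV differed in its leader: NmatCpat animal 2 was highest at 0.23, NmatCpat animal 1 followed at 0.15, and NmatNpat animal 2 was lowest at -0.15. In every complex NmatCpat animal 3 lay below 0 and inside the NmatNpat range, so that the genotypes overlapped for all 5 complexes.

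**Figure D4:**
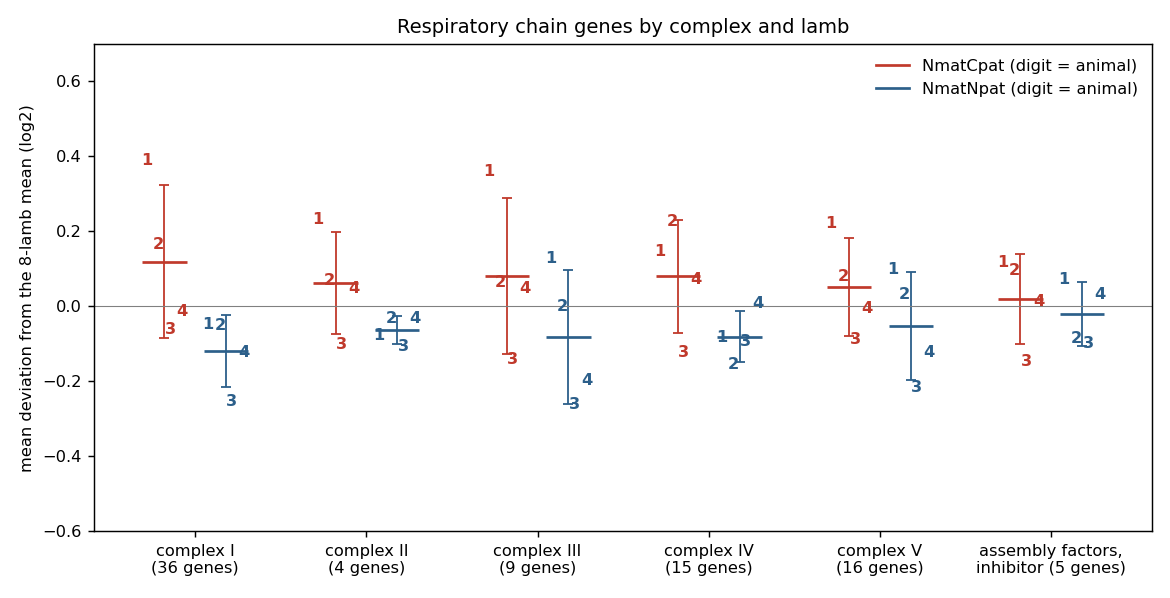
Mean deviation of the genes of each complex from their 8-lamb means (y axis, log2 units) in each lamb (digit, animal number; red, NmatCpat; blue, NmatNpat), with the group mean as a line and 1 SD as a bar. NmatCpat animal 1 is at the top except in complex IV, where NmatCpat animal 2 is, and the genotypes overlap in each complex.

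The difference between genotype means of these deviations was 0.24 for complex I, 0.12 for complex II, 0.16 for complex III, 0.16 for complex IV and 0.10 for complex V, against within-genotype SDs of 0.16, 0.10, 0.19, 0.12 and 0.14. Without NmatCpat animal 1 the differences were 0.15, 0.068, 0.071, 0.14 and 0.048. NDUFA7 alone added to the complex I value, which was 0.18 without that gene and 0.095 without both. The median over all 85 genes went from 0.17 to 0.081 without NmatCpat animal 1. The number of genes above 0 went from 67 to 58 without that lamb, and to 61 without NmatNpat animal 3. In complex V it was 9 of 16 without NmatCpat animal 1 and also without NmatNpat animal 3, against 13 with all lambs. Cell type markers also varied between lambs. The mean deviation of 4 macrophage markers was -0.43, -0.63, 0.52 and 0.53 in NmatCpat animals 1 to 4 and -0.55, -0.29, 0.67 and 0.19 in NmatNpat animals 1 to 4. Over the 85 genes the deviation was 0.29, 0.14, -0.092 and 0.014 against -0.0029, -0.050, -0.20 and -0.095, in the same order of lambs. Of 6 macrophage markers listed, 4 were measured, with a summed intensity of 902 to 2254 in NmatCpat lambs and 1023 to 2265 in NmatNpat lambs. Over 11 adipocyte markers the deviation was 0.077, 0.18, -0.0078 and 0.033 against -0.095, -0.23, -0.075 and 0.12, in the same order of lambs. Over 5 endothelial markers it was 0.18, 0.50, -0.026 and -0.12 against -0.90, -0.10, 0.21 and 0.26. Over 5 T cell markers it was -0.27, -0.26, -0.25 and 0.18 against 0.65, 0.22, -0.077 and -0.20. The part of these cell types in the differences between lambs was not tested.

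**Figure D5:**
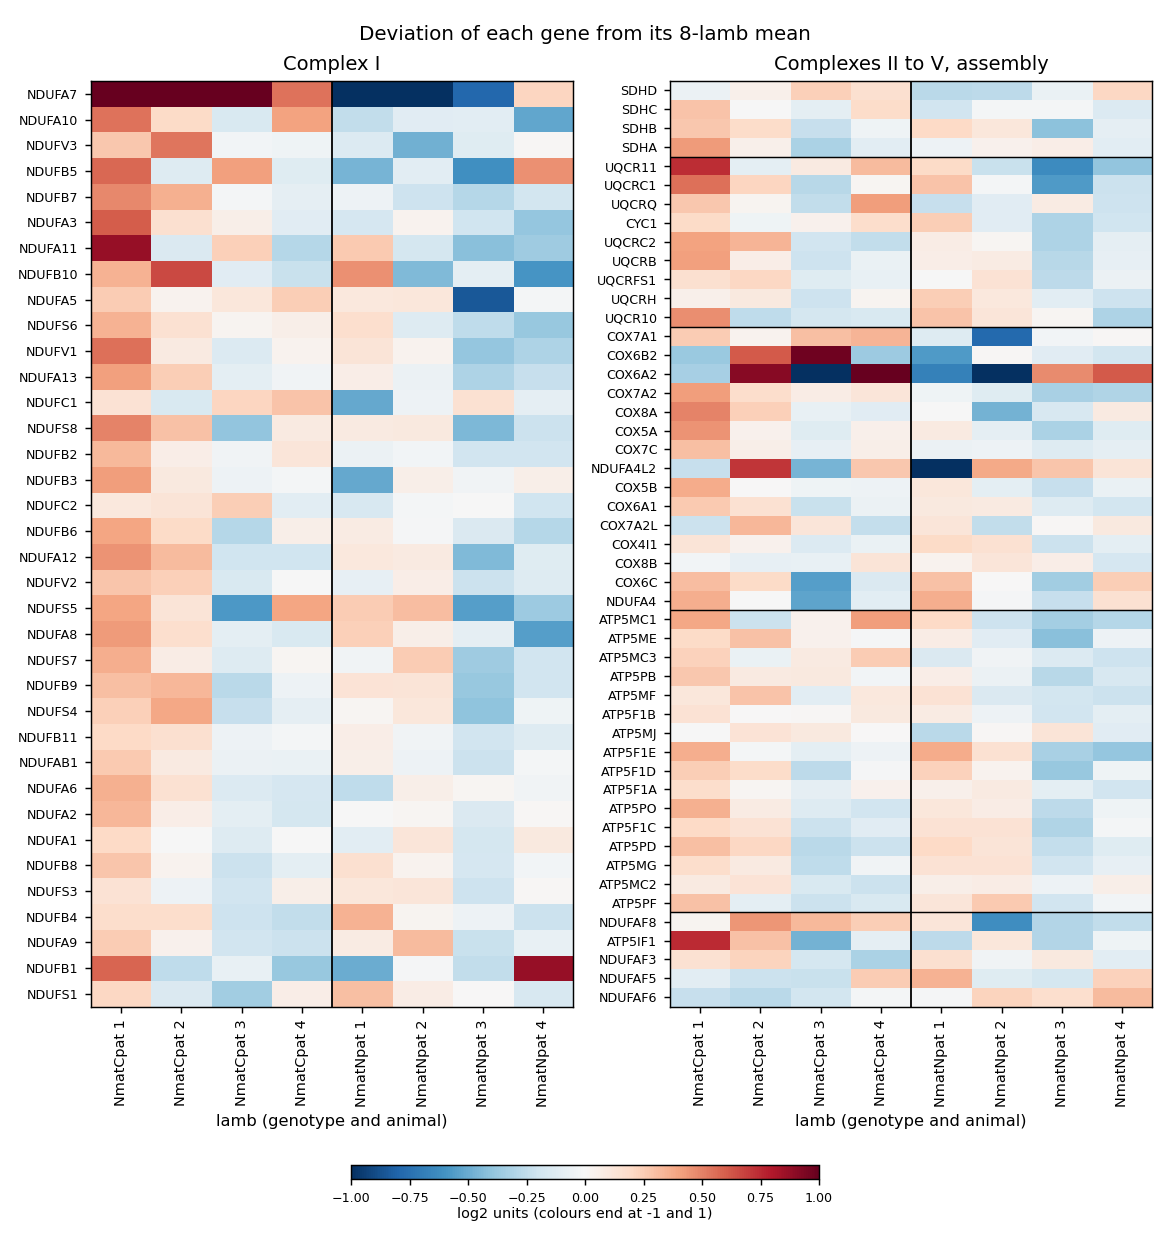
Log2 deviation of each of the 85 genes (y axis) from its 8-lamb mean in each lamb (x axis; red, above; blue, below; colours end at -1 and 1), by complex and ordered by difference, with a vertical line between the genotypes. The column of NmatCpat animal 1 is red in nearly all genes of complexes I to III and V, NmatNpat animal 3 is blue in most, and COX6A2, COX6B2 and NDUFA4L2 vary without that pattern.

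The mitochondrial genes around the chain were read beside it from lists of pathway members. As a background, 266 of all 9155 genes were called, 347 had an unadjusted P of at most 0.05 from limma, and 260 did not overlap between genotypes. Citrate cycle enzymes, which feed complexes I and II, lay above 0 in 9 of 10 genes with a median of 0.23. None was called, and SUCLA2, a subunit of succinyl-CoA synthetase, differed by 0.49 with overlapping genotypes, an unadjusted P of 0.049 and an adjusted P of 0.983 from limma. FH, the fumarase, did not overlap, reading 10.42, 10.53, 10.33 and 10.42 against 10.23, 10.15, 10.17 and 10.31, a difference of 0.21. The transcript of citrate synthase, CS, differed by 0.018, and mitochondrial content was not measured. Coenzyme Q synthesis and binding genes lay above 0 in 7 of 9, with a median of 0.13. COQ10A, which binds coenzyme Q, differed by 0.52 with overlapping genotypes, an unadjusted P of 0.041 and an adjusted P of 0.983 from limma.

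Mitochondrial ribosomal proteins lay above 0 in 43 of 67 genes with a median of 0.050. Of these 67 genes 1 was called, against 266 of all 9155 genes. The called gene, MRPS7, differed by 0.59 (unadjusted P = 0.029 and adjusted P = 0.983 from limma), with no overlap. It was not called with both NmatCpat animal 4 and NmatNpat animal 1 removed (0.60). Assembly factors that the symbol rule did not take lay above 0 in 14 of 25, with a median of 0.0080 and none called. Genes of mitochondrial DNA upkeep and biogenesis lay above 0 in 6 of 10 with a median of 0.098. The helicase TWNK was called at -0.97 (unadjusted P = 0.019 and adjusted P = 0.983 from limma). It read 3.69, 3.63, 3.40 and 3.39 against 4.17, 4.34, 3.99 and 5.49. These levels were low beside the median level of 7.11 over all genes, and NmatNpat animal 4 lay apart from the other NmatNpat lambs. Import and cristae genes lay above 0 in 7 of 13, and carriers, porins and uncouplers in 6 of 11, with medians of 0.090 and 0.034. None of these was called, and TIMM23, a channel of the inner membrane import machinery, did not overlap, reading 5.31, 5.18, 5.24 and 5.37 against 5.52, 5.59, 5.90 and 5.57. Its difference was -0.37, with an unadjusted P of 0.046 and an adjusted P of 0.983 from limma. COA4, an assembly factor of complex IV, also did not overlap, at -0.38, and neither did the ribosomal protein MRPL11, at 0.55.

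Of the brown fat markers 3 were measured, and all were variable and uncalled. UCP1, the uncoupling protein of brown fat, read 6.17, 5.69, 4.94 and 7.11 against 4.42, 5.96, 4.69 and 6.21, a difference of 0.66 (95% confidence interval -0.66 to 1.98). NmatCpat animal 4 was the highest lamb for it and NmatNpat animal 1 the lowest, and with both removed the difference was -0.017. PPARGC1A, a coactivator that drives mitochondrial biogenesis, differed by 0.36, and the lipid droplet protein CIDEA by -0.30. The genotypes overlapped for all 3.

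Where a gene had several probe sets, the others often did not repeat the sign of the brightest. There were 25 such probe sets for 22 genes, of which 13 had the same sign. Of the 9 that lay above the median level of all probe sets, 3 had the same sign. Of the 85 brightest probe sets, 82 lay above that median level.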

How the data were processed

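Gene expression was measured in perirenal fat of 8 lambs with 1 array each. The authors computed each intensity with MAS5 from the scanned array and deposited it without a log transform (no MAS5 version is stated in the sources used). The methods describe background correction and quantile normalization, but the deposited columns did not share quantiles. The deposited intensities were therefore log2-transformed and then quantile-normalized over the 8 arrays. Of 24128 probe sets, 112 controls were left out. A platform annotation gave 13292 probe sets a single symbol, 86 several and 10638 none.

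Each probe set was fitted with limma 3.58.1 in R 4.3.3 (moderated variances, NmatCpat minus NmatNpat, no covariates), with Benjamini-Hochberg adjustment over all 24016. The thresholds, P of at most 0.05 and fold above 1.5, are those used in the study, whose methods name no test statistic. Single values were also tested by exact two-sided permutation over all 70 arrangements of the lambs. The fit was tested on simulated data before use. The number of arrays, 4 against 4, limits the precision. The labels call the samples separate animals, so P-values measure the spread between lambs.

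Members, gene lists and tests were chosen with earlier results of these data known. Genes were named where a probe set was called, where they had the smallest P, the largest or most negative difference or the largest SD in their complex, and where they belonged to complex II, cytochrome c1, the tissue isoforms, the c subunits or the assembly factors. Lowest and highest genes of a group, genes at a P of at most 0.05 and examples from the lists were added after their values were seen. NDUFA4 and NDUFA4L2 were placed in complex IV. Alternatives changed the variance model, array weights, normalization, an offset of 16, the filters on dim and cross-hybridising probe sets, the value per gene, a block on the animal number, and the lambs included. No genome or sequence table of these genes was used here, and no sequences are shown.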

Additional observations from a re-analysis of the deposited data

Results flagged for a closer look

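In each genotype, the highest and the lowest lamb were compared with the other 3 for each of the 32 named probe sets and for the mean deviation of each group of genes, 78 sets of 4 lambs in all. Chance flags about 1 in 20 such sets, and 5 were flagged. NmatCpat animal 2 stood at 6.88 for the dimmer NDUFA11 probe set against 5.52 to 5.70 in the other NmatCpat lambs, and NmatNpat animal 1 at 3.97 for the same probe set against 5.11 to 5.33. NmatCpat animal 1 stood at 9.67 for UQCR10 against 8.96 to 9.06. NmatNpat animal 1, the lamb with high neuron transcripts, stood at 5.89 for NDUFA4L2 against 7.10 to 7.35. NmatNpat animal 3 stood at 11.96 for ATP5MC2 against 12.07 to 12.08. No mean deviation of a complex was flagged. The causes of these departures were not tested.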

How the results depend on the processing

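The median differences of complexes I to V, of all 85 genes and of all genes moved by less than the spread between lambs in all 138 alternatives. That spread was wider than the median itself in complexes III (0.19 against 0.15) and V (0.14 against 0.088). A median could therefore fall to 0 within it, and the comparison cannot show the medians to be stable. They ran from 0.048 to 0.20 in complex III and from 0.017 to 0.17 in complex V. None of the 5 complex medians fell below 0.017. No member passed Benjamini-Hochberg adjustment in limma in any setting, the lowest adjusted P being 0.282. The count of 2 called member probe sets was 1 without moderated variances, 1 among probe sets above the median level and 5 with no fold threshold, and the 943 calls over all probe sets became 626 and 244 in the first pair of settings. The count of 1 called gene was 2 with both NmatCpat animal 4 and NmatNpat animal 1 removed, 2 when the probe sets of each gene were averaged, and between 1 and 3 when single lambs were left out, the 3 being reached without NmatNpat animal 1. The count of genes highest in NmatCpat animal 1, an alternative chosen after seeing the data, was 32 with median-centred arrays and between 48 and 59 in the other settings.

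Whether the animal numbers pair the lambs was not settled. Correlations of same-numbered deviations were weak, at 0.039, 0.0054, 0.048 and -0.013. With the animal number as a replicate block, 3 member probe sets, 1 gene and 1124 probe sets in all were called. Of the lambs, 3 of 4 NmatCpat and 2 of 4 NmatNpat correlated best with their own number.

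Of 599 alternatives for the named genes, 552 kept both direction and side of the threshold, 36 changed sign, 6 lost a call (all for the dimmer NDUFA11 probe set) and 5 gained 1 (NDUFAF8 and UQCR11). For genes of the surrounding lists, removing both NmatCpat animal 4 and NmatNpat animal 1, chosen after seeing the data, gave -0.017 for UCP1, ended the call of MRPS7 at 0.60 and brought COQ10A past the threshold at 0.72. The sign changes were in genes near 0 or with wide spread, and their causes were not tested. With median-centred arrays UQCRH was 0.048 and COX4I1 0.015, and with cyclic loess COX7A2L was -0.0021. With both NmatCpat animal 4 and NmatNpat animal 1 removed, UQCR10 was 0.070, UQCRH 0.049, COX4I1 0.064, COX6A2 -0.11, COX6C 0.016, NDUFA4L2 -0.26 and NDUFAF3 0.078. With the probe sets of each gene averaged, COX6C was 0.23, NDUFA4 0.015, NDUFAF3 0.31 and NDUFAF5 0.019. Leaving out single lambs gave ranges across 0 of -0.11 to 0.14 for SDHA, -0.028 to 0.19 for SDHB, -0.22 to 0.029 for UQCR10, -0.087 to 0.062 for UQCRH, -0.093 to 0.046 for COX4I1, -0.015 to 0.15 for COX6A1, -0.23 to 0.069 for COX6C, -0.11 to 0.082 for COX7A2L, -0.087 to 0.0088 for COX8B, -0.28 to 0.018 for NDUFA4, -0.19 to 0.32 for NDUFA4L2 and -0.15 to 0.036 for NDUFAF3.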
